A study of Mus musculus with 6 samples.

Results

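The Chd chromatin remodellers are a family of 9 genes in the mouse, Chd1 to Chd9. Their probes were found by matching transcript accessions: the one that the scanner files give for each non-control probe was looked up, version dropped, among RefSeq genes. Of the 9 genes, 8 had a probe, and 12 probes carried them, out of 26370 probes that the table named for 19988 genes. Chd2 had 4 probes, Chd6 had 2, and Chd1, Chd3, Chd4, Chd5, Chd8 and Chd9 had 1 each. Chd2 probes 1 to 4 are the Agilent probes A_51_P294113, A_55_P2175469, A_65_P01643 and A_66_P101171, Chd6 probes 1 and 2 are A_52_P308507 and A_55_P2073457, and those of Chd4 and Chd5 are A_55_P2020373 and A_55_P1978371. No probe matched Chd7, which is not analysed here.

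The arrays measured RNA of S-phase cells sorted from the dorsal telencephalon, where the cerebral cortex forms, in mice at embryonic day 14.5. Both groups came from the same kind of embryo, heterozygous for a GFP knock-in at the Tis21 (Btg2) locus on a C57BL/6 background (strain label C57BL/6J), so the controls carry the knock-in allele too. Tis21 is switched on in progenitors that will make neurons, and its GFP reporter separates them from progenitors that still expand. The 3 Tis21-GFP positive arrays and the 3 Tis21-GFP negative arrays each held S-phase cells, gated by DNA content with the dye Vybrant DyeCycle Violet. One replicate pooled 30 hemispheres of 15 embryos to reach about 200000 sorted cells, so embryos within a replicate are not separate measurements. Per the series' design text, the 3 sets of arrays used were picked as the best of a larger number, by a rule not given in the sources used here.

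Chd proteins use ATP to slide, space or evict nucleosomes, and they share paired chromodomains, which in several members contact histone tails. Chd3, Chd4 and Chd5 are the alternative motor subunits of the NuRD complex, which couples remodelling to histone deacetylation. Chd1 and Chd2 act at transcribed genes, where Chd1 travels with elongating RNA polymerase. Chd6 to Chd9 form the remaining group, in which Chd8 is known as a human autism risk gene and Chd7 as the gene of CHARGE syndrome. In the developing mouse cortex, Chd4 is known for progenitor proliferation and Chd3 and Chd5 for later steps in the making and migration of neurons.

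Values are given as scaled log2 signal, the log2 processed intensity of a probe minus the 75th percentile of its own array, so that 0 is a signal equal to that percentile. These values are compared between arrays for 1 probe, never between probes. Between 51.2% and 56.2% of probes per array were well above background. The markers of the sort were read first. Eomes, which encodes a T-box factor that marks intermediate progenitors, was above its level in negative cells by 3.42 ± 0.25 in Tis21-GFP positive cells (moderated SE, limma adjusted p = 0.000521), and Btg2 itself by 0.77 ± 0.18 (limma adjusted p = 0.0258). Btg2 missed the threshold in 7 of 16 alternative settings, where its adjusted p ran from 0.00831 to 0.105 over all 16. Sox2, a transcription factor of stem and progenitor cells, was lower, with a difference of -0.76 ± 0.15 (limma adjusted p = 0.0158), but its call was lost without any 1 of the 3 negative arrays. Over all tested probes the median difference, positive minus negative, was 0.09.

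Among the 12 Chd probes, 1 passed the threshold of 0.05 on the limma adjusted p, the Chd5 probe, which was lower in Tis21-GFP positive cells. None was called higher (0 probes), and at an unadjusted p under 0.05 there was 1 probe higher, that of Chd4, and 1 lower, that of Chd5. Across all 28928 tested probes, 7.52% were called higher and 8.96% lower, so the family's 1 call of 12 is near that share. The 3 positive arrays lay wholly above the 3 negative arrays for 3 Chd probes, those of Chd3, Chd4 and Chd9. They lay wholly below for 2, those of Chd5 and 1 of Chd2. Over all tested probes 18.5% were higher and 14.8% lower at an unadjusted p under 0.05. Over the same probes 24.6% lay apart in the higher direction and 16% in the lower. Differences were above 0 for 6 of the 12 probes.

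**Figure D1:**
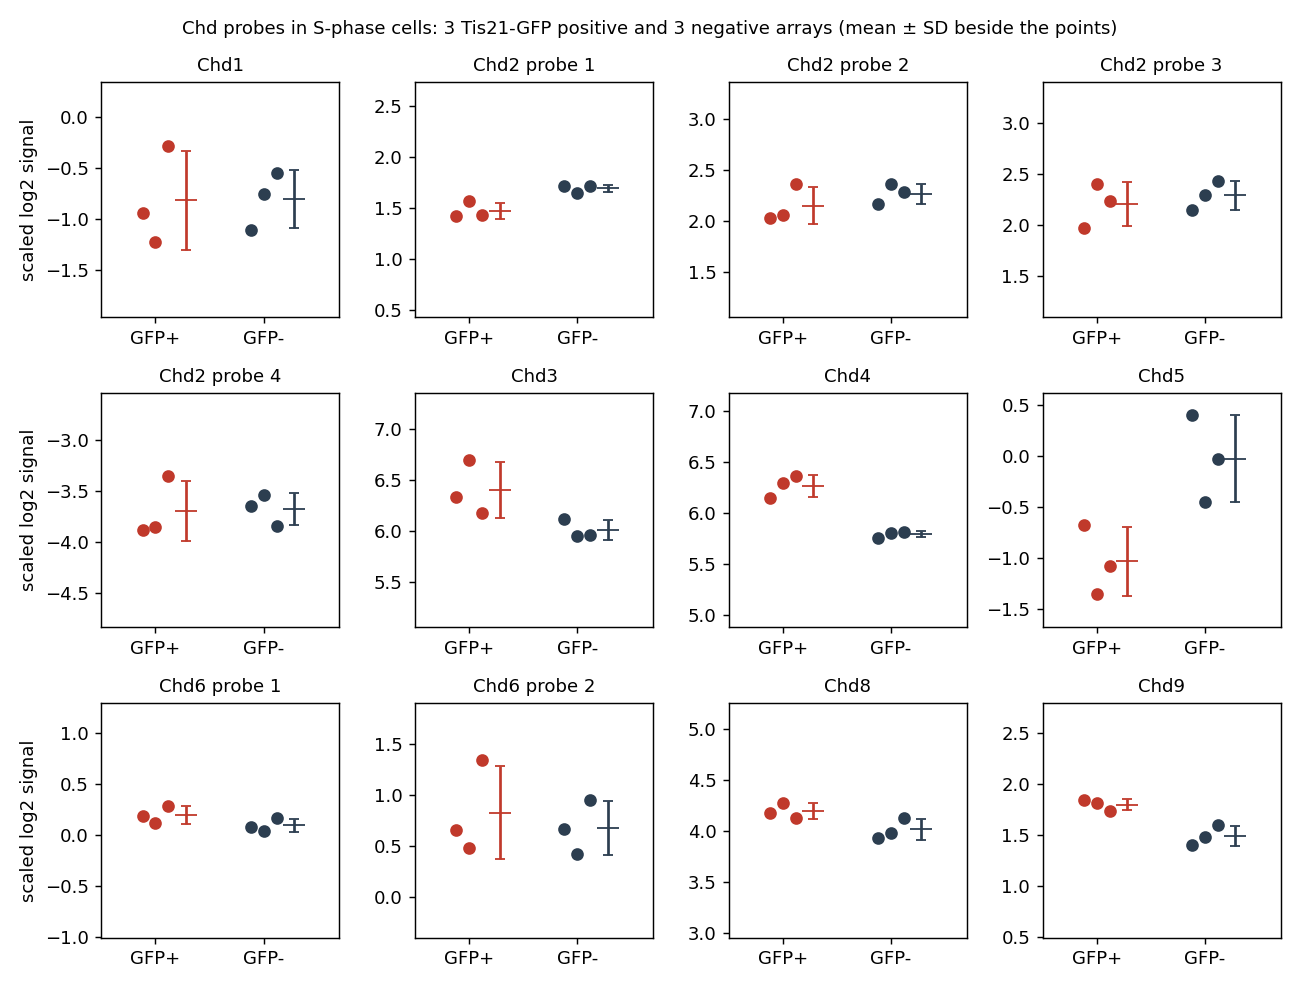
Scaled log2 signal of the 12 Chd probes on each array (dots), with the mean ± SD beside them (horizontal and vertical bars), Tis21-GFP positive left and Tis21-GFP negative right in each panel. The 3 positive arrays sit below the 3 negative arrays for Chd5 and Chd2 probe 1, and above them for Chd3, Chd4 and Chd9. Panels span the same height, and their levels are not comparable between panels.

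Chd5, the NuRD motor subunit known from neurons, read -0.67, -1.35 and -1.07 on the 3 Tis21-GFP positive arrays, against 0.40, -0.45 and -0.02 on the 3 negative arrays. No positive array reached the lowest negative array. The means were -1.03 ± 0.34 in positive cells and -0.02 ± 0.43 in negative cells (SD, n = 3 each). The difference of -1.01 ± 0.26 (moderated SE) had a 95% interval of -1.61 to -0.40 and passed the test (limma adjusted p = 0.0374), which corresponds to a signal 2.01-fold higher in negative cells. Before scaling, the processed intensities were 195, 115 and 101 on the positive arrays, against 436, 249 and 279 on the negative arrays. The probe was well above background on all 6 arrays. In RNA of sorted pools, fewer cells that express a gene and less of its RNA per cell cannot be told apart.

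Between same-numbered arrays, Chd5 differed by -1.08, -0.90 and -1.05 in replicates 1, 2 and 3, so every pair went the same way. Of all tested probes, 6.4% had a lower difference. The call depended on which array was left out and on the filter. It was kept without positive replicate 1 (-1.19, limma adjusted p = 0.0368) and without negative replicate 2 (-1.22, limma adjusted p = 0.0368). It was lost without positive replicate 2 (-0.85, adjusted p = 0.0906), without positive replicate 3 (-0.99, adjusted p = 0.0661), without negative replicate 1 (-0.79, adjusted p = 0.128) and without negative replicate 3 (-1.01, adjusted p = 0.112). It was also lost when dim probes were kept (limma adjusted p = 0.114). Over all 16 alternative settings the difference lay between -1.22 and -0.71 and passed in 11, with adjusted p from 0.00824 to 0.128.

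Markers of cells other than cortical progenitors also differed between the groups, in the same direction as Chd5 or against it. Of 13 postmitotic neuron markers, 6 were called higher in Tis21-GFP positive cells and 4 lower. The higher ones included the neuronal splicing factor gene Rbfox3 (2.16 ± 0.17, limma adjusted p = 0.000537) and the neurogenic transcription factor genes Neurod6 (2.03 ± 0.24, limma adjusted p = 0.00177) and Neurod2 (1.05 ± 0.15, limma adjusted p = 0.00399). The lower ones included the microtubule protein gene Mapt (-1.60 ± 0.22, limma adjusted p = 0.00339), the tubulin regulator Stmn2 (-1.56 ± 0.27, limma adjusted p = 0.00801) and the synaptic vesicle gene Syt1 (-1.60 ± 0.36, limma adjusted p = 0.0239). The summed linear signal of the neuron list, in units of an array's 75th percentile, was 192 to 234 on positive arrays and 116 to 165 on negative arrays.

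All 12 tested microglia and macrophage markers and all 8 tested markers of meninges and mesenchyme were called lower in positive cells. Some markers entered the test through the negative arrays alone, so their lower reading was partly fixed by the filter. They were P2ry12, Cx3cr1 and Mrc1 of the microglial list, and Col3a1, Lum, Pdgfra, Col1a1 and Nid1 of the meningeal list. The same held for the endothelial and pericyte markers Rgs5, Cspg4, Pdgfrb, Abcc9 and Flt1 and the interneuron marker Gad1. The microglial sum was 4.66 to 8.55 on positive arrays and 16.2 to 21.5 on negative arrays, with 1 marker well above background on no positive array. The meningeal sum was 0.639 to 0.93 on positive arrays and 4.62 to 9.23 on negative arrays, with 3 markers well above background on no positive array. Of 9 endothelial and pericyte markers 5 were called lower, and 4 were well above background on no positive array. Their sum, 9.6 to 10.6 on positive arrays and 8.78 to 9.81 on negative arrays, was carried by Kdr, named after its values were seen, and the other 8 markers summed to 0.434 to 0.688 on positive arrays and 1.82 to 2.84 on negative arrays. The Kdr probes disagreed, with differences of 0.45 ± 0.15 (limma adjusted p = 0.0837) and -1.59 ± 0.15 (limma adjusted p = 0.000928). Of 7 interneuron markers 2 were called lower, with sums of 6.37 to 8.04 on positive arrays and 7.57 to 13.2 on negative arrays. The part of these cells in the Chd5 difference was not tested.

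Chd4, the main NuRD motor of proliferating cells, read 6.15, 6.29 and 6.36 on the Tis21-GFP positive arrays, against 5.75, 5.80 and 5.81 on the negative arrays. Every positive array lay above every negative array. The means were 6.26 ± 0.11 in positive cells and 5.79 ± 0.03 in negative cells (SD, n = 3 each). The difference of 0.47 ± 0.13 (moderated SE, 95% interval 0.16 to 0.79) is a ratio of 1.39 and did not pass the test (limma adjusted p = 0.0509). It passed in 5 of 16 alternative settings, with adjusted p from 0.0141 to 0.415. The size depended on the scaling: it was 0.17 with quantile normalization and 0.17 in the authors' processed values, 0.30 when arrays were scaled on probes detected on all 6 arrays, and 0.66 with median centring.

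Chd3, the third NuRD motor, read 6.33, 6.70 and 6.18 on the positive arrays, against 6.12, 5.95 and 5.96 on the negative arrays. The groups did not overlap, but positive replicate 2 stood 0.75 above its same-numbered negative array and the other pairs differed by 0.21. The means were 6.40 ± 0.27 in positive cells and 6.01 ± 0.10 in negative cells (SD, n = 3 each). The difference of 0.39 ± 0.17 (moderated SE, 95% interval -0.01 to 0.80) did not pass (limma adjusted p = 0.159), nor did it in any of the 16 alternatives (adjusted p from 0.0789 to 0.668).

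The changes of paralogs were then set against each other within arrays. This cancels a scaling that shifts all probes of an array alike, but not one that depends on intensity. With quantile normalization the separate differences were 0.17 for Chd4, 0.13 for Chd3 and -0.98 for Chd5. The comparisons that follow use the main scaling. The change in Chd4 exceeded that in Chd5 by 1.48 ± 0.36 on the log2 scale (SE), and the change in Chd3 exceeded that in Chd5 by 1.40 ± 0.37. Both had an exact two-sided permutation p = 0.1, the smallest that 3 arrays against 3 can give, and an adjusted p of 0.233 over the 7 paralog pairs compared. In both cases the 3 positive arrays lay wholly on one side of the 3 negative arrays. Chd3 and Chd4 differed from each other by -0.08 ± 0.19 (exact permutation p = 0.9).

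**Figure D2:**
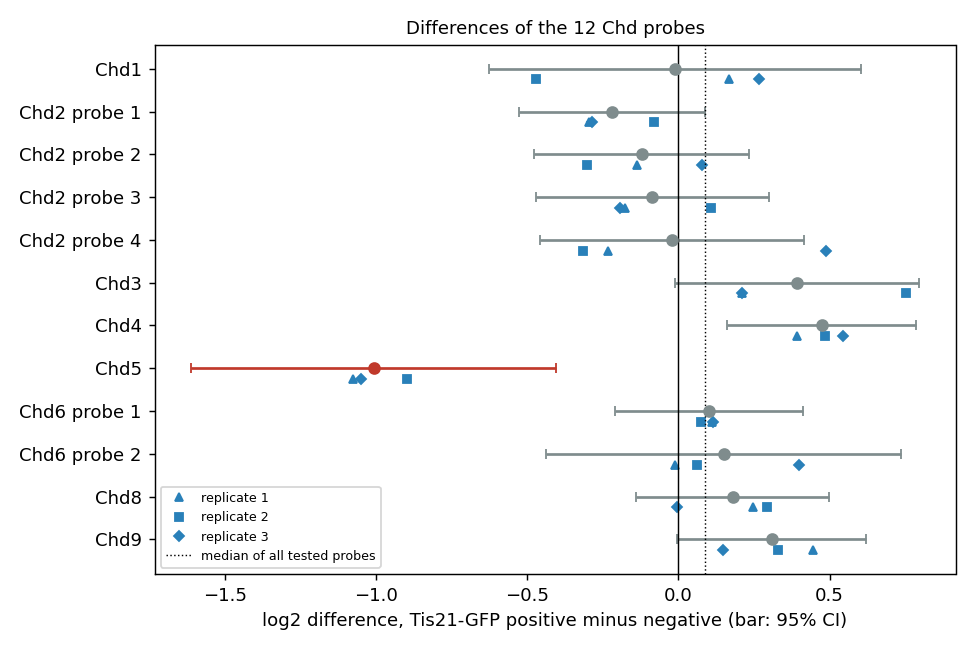
Difference in scaled log2 signal, Tis21-GFP positive minus negative, of each of the 12 Chd probes (large circle) with its 95% interval (bar), the differences of the 3 same-numbered array pairs (small symbols) and the median of all tested probes, 0.09 (dotted line). The interval of Chd5 lies below 0 and that of Chd4 above 0, and of the 12 only that of Chd5, in red, passed the adjusted threshold.

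The proximal promoters of Chd5 and Chd4 are shown because these were the NuRD motors with the lowest and the highest difference. The RefSeq promoter table (build GRCm38.p6, windows of 300 bases around a start site) held 8 windows for 5 of the genes, Chd4, Chd5, Chd6, Chd8 and Chd9. Printed 5′ to 3′ on the plus strand, chr4:152338401-152338700 for Chd5 and chr6:125095731-125096030 for Chd4, the capitals mark the letters GTTGCC, a half-site of RFX factors, searched on both strands.
Chd5: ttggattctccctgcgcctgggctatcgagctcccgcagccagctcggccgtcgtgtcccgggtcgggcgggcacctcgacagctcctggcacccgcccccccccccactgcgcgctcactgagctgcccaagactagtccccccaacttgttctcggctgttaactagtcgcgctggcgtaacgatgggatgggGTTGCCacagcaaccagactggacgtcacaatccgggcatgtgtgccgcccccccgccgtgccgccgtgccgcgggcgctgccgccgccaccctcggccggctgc
Chd4: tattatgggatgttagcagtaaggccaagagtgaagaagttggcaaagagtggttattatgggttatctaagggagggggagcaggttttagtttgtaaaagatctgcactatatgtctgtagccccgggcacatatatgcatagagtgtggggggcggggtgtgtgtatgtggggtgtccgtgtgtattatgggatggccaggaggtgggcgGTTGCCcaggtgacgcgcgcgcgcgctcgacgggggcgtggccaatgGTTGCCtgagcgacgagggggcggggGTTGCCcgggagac

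The Chd4 window held 3 matches to GTTGCC and the Chd5 window 1. Of all 32851 promoters in the table, 12.5% held at least 1 match and 0.103% held 3 or more. A second Chd4 window, which overlaps the first, holds the same 3 matches, Chd8 had 1, and Chd6 and Chd9 had 0. The motif was chosen after the sequences had been read, and a match describes letters, not a bound site. The Chd5 window had 32 CpG dinucleotides, more than 90.5% of promoters, and a GC content of 70.7%. The printed Chd4 window had 17 CpG dinucleotides, more than 68.6% of promoters, and a GC content of 57.0%. The second Chd4 window had 29 CpG dinucleotides, more than 87.1% of promoters, and a GC content of 68.3%, so the Chd4 values depend on the window. The median promoter had 7 CpG dinucleotides.

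The partner subunits of NuRD were read next. Of 17 tested partner subunits, 5 were called higher in Tis21-GFP positive cells and 1 lower, with a median difference of 0.36. Over all 13140 tested genes, each read at its probe with the highest mean, 9.12% were called higher and 11.3% lower, and the median difference was 0.12. At an unadjusted p under 0.05, 21.4% of these genes were higher and 16.7% lower, and the groups lay apart for 28.2% in the higher direction and 18.6% in the lower. The list was drawn up with earlier results of these data known.

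Hdac2, a deacetylase of the complex, read 0.36, 0.50 and 0.37 on positive arrays, against -0.25, -0.33 and -0.27 on negative arrays, a difference of 0.70 ± 0.13 (limma adjusted p = 0.0122). Mta2, a scaffold subunit, read 4.70, 5.16 and 4.51 on positive arrays, against 3.78, 3.80 and 3.81 on negative arrays, a difference of 0.99 ± 0.19 (limma adjusted p = 0.0125). Rbbp4, a histone-binding subunit, read 5.70, 5.86 and 5.80 on positive arrays, against 4.98, 5.19 and 4.97 on negative arrays, a difference of 0.74 ± 0.14 (limma adjusted p = 0.0125). In each of the 3 genes the groups lay apart, with the positive arrays above.

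The other called subunits, named after their values were seen, were Cdk2ap1 (0.83 ± 0.16, limma adjusted p = 0.0144) and the methyl-CpG-binding domain gene Mbd3 (0.51 ± 0.13, limma adjusted p = 0.0397). The number of partner subunits called higher was 0 without negative replicate 1, 1 without negative replicate 3 and 0 when dim probes were kept, and between 4 and 6 in the remaining alternatives.

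Mbd2, which takes the place of Mbd3 in separate NuRD complexes and binds methylated DNA, was the subunit called lower. It read -0.66, -0.80 and -0.80 on positive arrays, against 0.29, 0.10 and 0.53 on negative arrays, and the groups lay apart. The difference was -1.06 ± 0.16 (limma adjusted p = 0.00446), and it passed in all 16 alternatives. Its probes disagreed, since a second Mbd2 probe differed by -0.06 ± 0.14 (limma adjusted p = 0.796). The second Mbd3 probe differed by 0.38 ± 0.17 (limma adjusted p = 0.154). Within arrays, the change in Mbd3 exceeded that in Mbd2 by 1.57 ± 0.11 (SE, exact permutation p = 0.1, the smallest possible), a pair chosen after its values were seen.

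**Figure D3:**
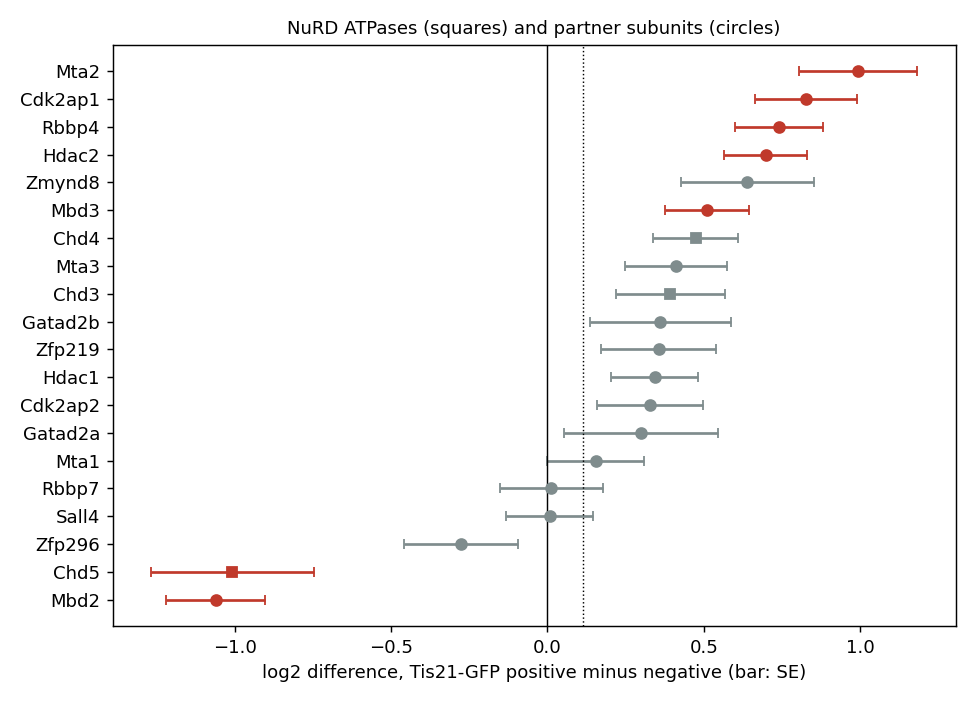
Difference in scaled log2 signal, Tis21-GFP positive minus negative, of the NuRD motors (squares) and the 17 tested partner subunits (circles), each with its moderated SE (bar), with the median of all tested genes, 0.12, as a dotted line. Red marks an adjusted p that passed 0.05: Mta2, Cdk2ap1, Rbbp4, Hdac2 and Mbd3 to the right of 0, Chd5 and Mbd2 to the left.

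Chd1, which binds methylated histone H3 at active genes, read -0.95, -1.23 and -0.29 on positive arrays, against -1.12, -0.76 and -0.56 on negative arrays. The groups overlapped across their whole range. The difference of -0.01 ± 0.27 (moderated SE, 95% interval -0.63 to 0.60, limma adjusted p = 0.981) did not pass, and its sign turned with quantile normalization (0.05) and median centring (0.17).

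Chd2, its closest paralog, was read by 4 probes. Probe 1 read 1.42, 1.57 and 1.43 on positive arrays, against 1.71, 1.65 and 1.71 on negative arrays, and the groups did not overlap. The difference of -0.22 ± 0.13 (95% interval -0.53 to 0.09) did not pass (limma adjusted p = 0.278). The other 3 probes overlapped between groups, with differences of -0.12 ± 0.15, -0.09 ± 0.17 and -0.02 ± 0.19 (limma adjusted p from 0.612 to 0.950). Probe 4 was dim, with means of -3.70 ± 0.30 in positive cells and -3.68 ± 0.15 in negative cells (SD, n = 3 each), and was well above background on all 3 positive arrays and 2 negative arrays. All 4 differences were negative under the main scaling, and those of probes 2, 3 and 4 were positive with median centring. Over the 6 pairs of Chd2 probes, the changes differed by -0.20 to -0.04, within the spread over arrays (exact permutation p from 0.3 to 0.9, adjusted p = 0.9 over 7 probe pairs). The changes in Chd1 and Chd2 differed by 0.07 ± 0.34 (exact permutation p = 0.8).

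Among elongation factors linked to Chd1, 0 of 12 were called in either direction by limma, with a median difference of 0.35. At an unadjusted p under 0.05, 5 were higher and 0 lower, where 21.4% of all tested genes were higher and 16.7% lower. For 8 the positive arrays lay wholly above the negative ones, as they did for 28.2% of all tested genes. The largest statistics were those of Rtf1 (0.45 ± 0.15, limma adjusted p = 0.0743) and Paf1 (0.53 ± 0.19, limma adjusted p = 0.101), subunits of the Paf1 complex.

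Chd9 read 1.85, 1.81 and 1.74 on positive arrays, against 1.40, 1.48 and 1.60 on negative arrays. The groups did not overlap. The means were 1.80 ± 0.05 in positive cells and 1.49 ± 0.10 in negative cells (SD, n = 3 each), and the difference of 0.31 ± 0.14 (moderated SE, 95% interval -0.01 to 0.62) did not pass (limma adjusted p = 0.156). Over the 16 alternatives it lay between 0.13 and 0.49, with adjusted p from 0.0809 to 0.524.

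Chd8, a regulator of beta-catenin targets, read 4.18, 4.28 and 4.12 on positive arrays, against 3.93, 3.98 and 4.13 on negative arrays. One negative array lay within the positive range. The difference was 0.18 ± 0.14 (95% interval -0.14 to 0.50, limma adjusted p = 0.393), and it was below 0 with quantile normalization (-0.07).

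Chd6 was read by 2 probes. Probe 1 read 0.19, 0.12 and 0.29 on positive arrays, against 0.08, 0.04 and 0.17 on negative arrays, a difference of 0.10 ± 0.14 (95% interval -0.21 to 0.41, limma adjusted p = 0.629). Probe 2 read 0.65, 0.48 and 1.34 on positive arrays, against 0.66, 0.42 and 0.94 on negative arrays, a difference of 0.15 ± 0.25 (95% interval -0.44 to 0.74, limma adjusted p = 0.708). The changes seen by the 2 probes differed by -0.05 ± 0.24 (SE, exact permutation p = 0.9). Both overlapped between groups, and both differences were below 0 when arrays were scaled on probes detected on all 6 arrays (-0.07 and -0.02).

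Chd8 and Chd9 differed in their change by -0.13 ± 0.04 (SE), with an exact permutation p = 0.1, the smallest possible, and an adjusted p of 0.233. The changes in Chd6 differed from those in Chd8 by -0.03 ± 0.32 and from those in Chd9 by -0.16 ± 0.32 (exact permutation p = 1.0 and 0.7).

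Of the 18 tested genes of the Wdr5 and histone H3 lysine methyltransferase complexes to which Chd8 is linked, limma called 0 in either direction, with a median difference of 0.27. At an unadjusted p under 0.05, 4 were higher and 0 lower, a share of higher genes near the 21.4% of all tested genes. For 8 the positive arrays lay wholly above the negative ones and for 0 wholly below, against 28.2% and 18.6% of all tested genes. The largest statistics were those of the core subunit Ash2l (0.41 ± 0.14, limma adjusted p = 0.0961) and the methyltransferase Setd1a (0.45 ± 0.16, limma adjusted p = 0.103).

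Genes known as partners or targets of Chd7 in neural cells were read although Chd7 was not. Of 15 tested, 2 were called higher and 5 lower, with a median of -0.22. Reln and Bmp4, neither of them called, entered the test through the negative arrays alone, so this median was partly fixed by the filter. Over all tested genes 9.12% were called higher and 11.3% lower, with a median of 0.12. The 2 higher ones were the neurogenic transcription factors Sox11 (1.16 ± 0.13, limma adjusted p = 0.00166) and Sox4 (1.24 ± 0.26, limma adjusted p = 0.019). The Sox4 call was lost without any 1 of the 3 negative arrays and when dim probes were kept. The lower ones included the stem cell factor Sox9 (-1.36 ± 0.16, limma adjusted p = 0.00169) and the hedgehog effector Gli3 (-1.04 ± 0.14, limma adjusted p = 0.00273). Both counts depended on the arrays: without negative replicate 1, 2 or 3 the list had 1 gene called higher each time and 3, 2 and 2 called lower. Gli3, Sox2 and Hes5, all called lower, also stand in the list of radial glia markers, of which 10 of 13 were called lower.

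Remodellers of other families were read for comparison. Among 11 ISWI remodellers and partners, 2 were called higher and 0 lower, with 6 higher and 0 lower at an unadjusted p under 0.05 (21.4% and 16.7% of all tested genes). They were Baz1b (0.82 ± 0.15, limma adjusted p = 0.0112), whose call was lost without negative replicate 3, and Cecr2 (0.97 ± 0.19, limma adjusted p = 0.0149), whose call was lost without negative replicate 1 or 2, and both calls were lost when dim probes were kept. Among 26 genes of the INO80, SRCAP and Ep400 complexes, 1 was called higher, the actin-related subunit gene Actl6a (0.67 ± 0.14, limma adjusted p = 0.0203). None was called lower, and the median difference was 0.31, against 0.12 over all tested genes. At an unadjusted p under 0.05, 9 were higher and 0 lower. For 12 the positive arrays lay wholly above the negative ones and for 0 wholly below, against 28.2% and 18.6% of all tested genes. Of all tested genes, 9.12% were called higher and 11.3% lower. Actl6a narrowly missed the threshold with quantile normalization (0.46, limma adjusted p = 0.0511) and in the authors' processed values (0.45, limma adjusted p = 0.0519). It also missed it without positive replicate 1, negative replicate 1 or negative replicate 3 and when dim probes were kept, and over all 16 alternatives its adjusted p ran from 0.00403 to 0.0871.

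Chd1l, which shares the helicase motor but not the chromodomains and responds to poly(ADP-ribose), was called lower. It read -0.01, -0.64 and -0.27 on positive arrays, against 1.14, 0.92 and 0.89 on negative arrays, and the groups lay apart. The difference of -1.29 ± 0.19 (limma adjusted p = 0.00443) passed in all 16 alternatives, with adjusted p from 0.000576 to 0.0298. It was the 1 gene called among 15 remodellers outside the large families, where 9.12% of all tested genes were called higher and 11.3% lower. At an unadjusted p under 0.05, 5 of the 15 were higher and 2 lower, against 21.4% and 16.7% of all tested genes. The positive arrays lay wholly above the negative ones for 6 and wholly below for 3, against 28.2% and 18.6%.

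**Figure D4:**
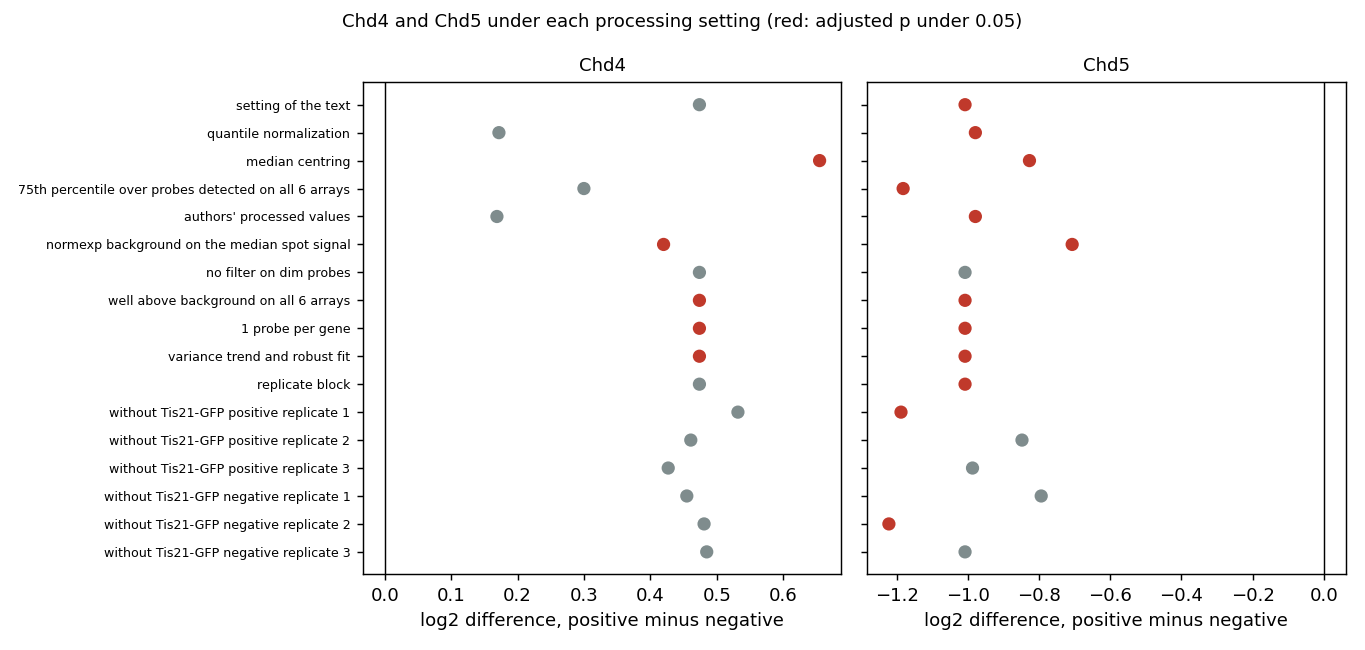
Difference in scaled log2 signal of Chd4 (left) and Chd5 (right), Tis21-GFP positive minus negative, under the setting of the text and the 16 alternatives, in red where the adjusted p passed 0.05. Chd5 stays between -1.22 and -0.71, and Chd4 between 0.17 and 0.66.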

How the data were processed

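RNA of 3 Tis21-GFP positive and 3 Tis21-GFP negative samples was hybridised to 1-colour Agilent arrays. The deposited scanner files hold processed intensity values per spot, which the authors obtained in Agilent Feature Extraction, version 10.7.1.1 in the submitters' processing notes. A deposited table of the authors' own log2 values served as an alternative. Its columns correlated with the scanner values at 0.99948 or above, and the sources used here do not give its scaling. It gave 1756 calls higher and 2399 lower, and quantile normalization gave 1764 and 2400, so these alternatives are not separate checks.

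Of 62976 spots per array, 59305 were not controls, for 55681 probes. Control spots and outlier spots (118 to 191 per array) were left out, and spots of a probe were averaged. The 75th percentile of each array (213 to 341 intensity units) was subtracted on the log2 scale. A probe entered the test if either group had it well above background on each of its 3 arrays, 28928 in all, and 0 spots were saturated. A linear model with the group alone was run across all of them in limma 3.58.1 (lmFit, then eBayes; R 4.3.3), with Benjamini-Hochberg adjustment. The script was tested on simulated data.

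Probes were named through the RefSeq table of assembly GRCm38.p6, whereas the array design uses mm9, so no gene coordinates were taken. Paralogs and probes were compared by exact two-sided permutation over arrays, on differences within an array. The members, the lists and the rule for named genes were chosen with earlier results of these data known. The rule took every Chd probe, Btg2, Eomes and Sox2, and of each list up to 3 called members in each direction with the smallest adjusted p, or else up to 2 with the largest statistic. The number of arrays limits the precision, and p-values set a difference against the spread between pooled samples. The arrays were picked as the best of a larger number, so this spread may differ from that among all pools.

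Arrays of the same number deviated together from their group means, with correlations of 0.167, 0.122 and 0.351, against at most 0.07 for other pairs. Deviations within a group cancel out, so positive values for same-numbered arrays push those of other pairs down. The contrast is partly built in and cannot decide whether the arrays were paired. Same-numbered arrays were set side by side and served as a block in an alternative, and the main model had no block. Alternatives changed the normalization, the filter, the background, the variance model and the block, and left out each array. The normexp background on the median spot signal (offset 50) was added after seeing the data, because the files hold no mean signal.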

Additional observations from a re-analysis of the deposited data

How the results depend on the processing

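Of the 12 Chd probes, 1 was called higher, Chd4, with median centring, normexp background, signal well above background on all 6 arrays, 1 probe per gene, or a variance trend with robust fit. The count called lower fell to 0 when dim probes were kept and lay between 0 and 1 when each array was left out. The replicate block, on same-numbered arrays, gave 0 Chd probes higher and 1 lower (limma adjusted p = 0.00824 for Chd5 and 0.0605 for Chd4). Over the whole array the block gave 2269 probes higher and 2994 lower. It changed no call of a Chd probe.

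Over all probes, 2174 were called higher and 2592 lower, 45.6% of calls higher. Calls higher numbered 3632 with median centring (65.2% of calls), 1092 with scaling on probes detected on all 6 arrays (24.8%), 751 with dim probes kept (33.1%), 3424 with the variance trend, and 737 to 1979 with each array left out. Calls lower numbered 1518 with dim probes kept, 1716 with 1 probe per gene, and 1350 to 2772 with each array left out. With normexp 56.2% of calls were higher. The median difference of all probes was 0.27 with median centring and -0.09 with detected probes, against 0.09, so Chd values move by that shift.

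The sign turned for differences that had not passed. Quantile normalization gave 0.048 for Chd1, 0.165 for Chd2 probe 4 and -0.07 for Chd8, and the authors' values gave 0.047, 0.164 and -0.073. Median centring gave 0.17 for Chd1 and 0.061, 0.095 and 0.16 for Chd2 probes 2, 3 and 4, and normexp gave 0.055 for Chd2 probe 4. Scaling on detected probes gave -0.073 and -0.024 for Chd6 probes 1 and 2. With each array left out, Chd1 lay between -0.278 and 0.192, Chd2 probe 3 lay between -0.186 and 0.03, Chd2 probe 4 lay between -0.192 and 0.073 and Chd6 probe 2 lay between -0.109 and 0.321.
The cause of these turns was not tested. Of the counts called in the partner and remodeller lists over the alternatives, 180 stayed within 1.5 times and 44 did not. A count of 0 that stayed 0 was taken as unchanged. Slide and scan could not serve as a block, since all arrays share them. Depth does not apply; the dim Chd2 probe 4 is limited by its signal over background.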
